A study of Homo sapiens with 5 samples.

Results

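The epidermal differentiation complex is a run of genes in band 1q21 on the long arm of human chromosome 1, whose products build the outer layers of stratified epithelium. It was taken here as the 57 protein-coding RefSeq genes of chromosome 1 named S100A, SPRR or LCE followed by a digit, together with FLG, FLG2, HRNR, RPTN, TCHH, TCHHL1, CRNN, IVL, LORICRIN, KPRP and SMCP, out of 19974 protein-coding gene records. The members comprised 19 LCE genes, 16 S100A genes, 11 SPRR genes, 7 genes of the fused-type S100 family (FLG, FLG2, HRNR, RPTN, TCHH, TCHHL1 and CRNN) and 4 others. They spanned 1651 kb of hg38, from the start of the S100A10 record at 151982915 to the end of the S100A13 record at 153634361. Chromatin immunoprecipitation with sequencing (ChIP-seq) was performed in HT1376, an established human bladder carcinoma line, kept with 250 nM CPI-0209, an inhibitor of EZH2, or with its vehicle DMSO. The labels give 8 days as the treatment time, and 1 of their protocols names 4 and 8 days. The 4 groups are H3K27me3 with CPI-0209, H3K27me3 with DMSO, EZH2 with CPI-0209 and EZH2 with DMSO, each from 1 library of this line, and the input library was not analysed here.

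EZH2 carries the methyltransferase activity of Polycomb repressive complex 2, which trimethylates lysine 27 of histone H3, and the resulting H3K27me3 mark is found over repressed developmental and tissue-specific genes. In epidermis many of its genes, such as those of the cornified envelope, are switched on as keratinocytes leave the basal layer and move outward. Involucrin, loricrin, small proline-rich (SPRR) and late cornified envelope (LCE) proteins are cross-linked into the cornified envelope. Fused-type S100 proteins such as filaggrin bundle or surround keratin filaments, and the S100A genes encode small calcium-binding proteins, many of them made outside skin as well.

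Each library was available as a list of called intervals without scores or read counts, so depth is unknown, and a missing interval does not show that a mark was absent. With 1 library per group no test between CPI-0209 and DMSO was possible, and no difference below has a replicate check. Every list consisted of 2 complete runs through the chromosomes written one after the other, called the first and the second block here, and no intervals overlapped within a block. The labels and file headers do not say what the blocks are, and whether the first block of one list corresponds to the first of another is not known. For H3K27me3 with CPI-0209 the first block covered 113.4 Mb of the genome and the second 15.1 Mb, and for H3K27me3 with DMSO they covered 201.5 Mb and 311.1 Mb. For EZH2 with CPI-0209 the blocks covered 136.5 Mb and 204.7 Mb, and for EZH2 with DMSO 67.9 Mb and 160.0 Mb. Both blocks were pooled below, and the blocks that hold a call are named where they differ. Interval lists do not measure expression, so the identity of the line could not be checked from its markers. Of 16 epithelial and urothelial marker genes, 1 (UPK1A, which encodes a uroplakin) carried H3K27me3 at both ends in CPI-0209, and the same gene did in DMSO. This is 6.25% in each condition, against 8.68% of all protein-coding genes in CPI-0209 and 15.2% in DMSO. At least 1 end was marked in 3 of the 16 in CPI-0209 (18.75%, against 21.7%) and in 4 in DMSO (25%, against 31.3%). By the annotated start, which 7 of them have, it was at 2 in each condition (28.6%), against 17.1% in CPI-0209 and 24.4% in DMSO.

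H3K27me3 occupied a pair of flanks within the complex and was not called over its centre. In CPI-0209 cells the mark covered 20.4 kb of the locus (1.24%) in 6 domains, and in DMSO cells 150.4 kb (9.11%) in 16 domains, a domain being a run of overlapping or touching intervals. The domains had a median width of 3.20 kb in CPI-0209, between 2.20 and 4.80 kb, and of 9.70 kb in DMSO, between 2.40 and 19.6 kb. Over the genome the medians were 5.0 kb in CPI-0209 and 8.60 kb in DMSO. All 6 CPI-0209 domains lay wholly inside DMSO domains, and 13.6% of the DMSO length in the locus was called again in CPI-0209, against 35.8% over the genome. All 6 came from the first CPI-0209 block, and the second CPI-0209 block held no interval in the locus. Over the genome 13653 of the 15830 CPI-0209 H3K27me3 domains were held by 1 block. The locus was divided into 5 stretches after the intervals had been seen. From TCHHL1 to CRNN the mark covered 12.6 kb in CPI-0209 and 60.4 kb in DMSO, and from LORICRIN to S100A7 it covered 7.80 kb in CPI-0209 and 90 kb in DMSO. Around S100A10 and S100A11, from LCE5A to SPRR2G and from S100A6 to S100A13 it covered 0 kb in both conditions.

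**Figure D1:**
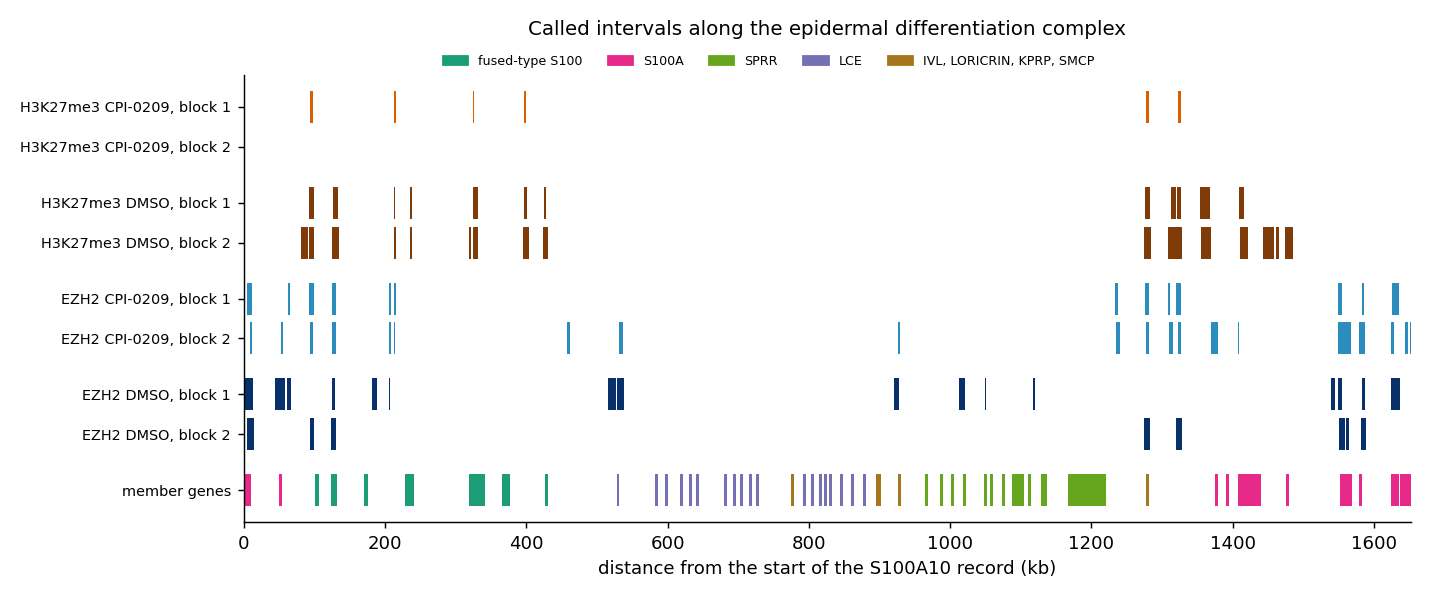
Called intervals of both blocks of each list (rows; CPI-0209 above DMSO for each antibody) and the 57 member genes coloured by family, along the locus in kb; genes are drawn at a minimum width. H3K27me3 intervals lie on the flanks, and none lies in the 843.2 kb that hold the LCE and SPRR genes, where 5 EZH2 domains were called in CPI-0209 and 7 in DMSO.

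The central gap in H3K27me3 ran for 876.8 kb in CPI-0209, from 152382801 to 153259600, and for 843.2 kb in DMSO, from 152414401 to 153257600. The DMSO gap held 33 members, namely all 19 LCE genes, all 11 SPRR genes, IVL, KPRP and SMCP, and the CPI-0209 gap held CRNN as well. Gaps between neighbouring H3K27me3 domains had a genome-wide median of 11 kb in CPI-0209 and 11.4 kb in DMSO. Of 15807 such gaps 767 (4.85%) were longer than this one in CPI-0209, and of 21566 gaps 641 (2.97%) were longer in DMSO. Within the DMSO gap, EZH2 covered 19.8 kb in CPI-0209 and 39.8 kb in DMSO. EZH2 itself left a gap of 389.0 kb in CPI-0209 and 382.4 kb in DMSO over 20 members from LCE3E to SMCP, 18 of them LCE genes. Gaps between EZH2 domains had a genome-wide median of 18.6 kb in CPI-0209 and 33.8 kb in DMSO. Of these gaps 4.98% were longer than this one in CPI-0209 and 7.77% in DMSO. For both antibodies these shares count gaps and not length, and longer gaps hold a larger part of the genome than of the count. The part by length was not computed, and the gaps were picked out after the intervals had been seen. Many SPRR2 and LCE genes are close copies of one another, as are the repeats within FLG and HRNR, and reads from such copies may not be placed uniquely. The part of this in the missing calls was not tested, so the absence of intervals at these genes is uncertain.

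At the genes themselves, a member was scored as marked at both ends when an interval came within 2 kb of each end of its record. H3K27me3 marked both ends of 1 member in CPI-0209, LORICRIN, and of 4 in DMSO, TCHH, CRNN, LORICRIN and S100A7. These are 1.75% of the members in CPI-0209 (exact 95% interval 0.0444 to 9.39), against 8.68% of all protein-coding genes, and 7.02% in DMSO (1.945 to 17.0), against 15.2%. The intervals cover counting error only, and neighbouring members share domains. In the first DMSO block alone, LORICRIN was the single member marked at both ends, so the count differed between conditions through the second DMSO block. The longer DMSO list was also shortened to its widest intervals, to the covered length of the CPI-0209 list. This left 0 members and 0% of the locus in DMSO, beside 1 member and 1.24% in CPI-0209. The cut is by width, and it dropped every DMSO interval of the locus and left the narrow CPI-0209 intervals whole. It therefore cannot order the conditions. Members are short, with a median record of 2.11 kb against 24.2 kb over all genes, so both ends of a member more readily fall within 1 domain. With the annotated gene start alone, which 54 members have, the mark was called at 1 start in CPI-0209 (1.85%), against 17.1% of all annotated starts, and at 5 in DMSO (9.26%), against 24.4%. Of the 4 members marked at both ends in DMSO, 1 was marked at both in CPI-0209 and 3 at neither. Over all genes marked at both ends in DMSO, 56.3% kept both in CPI-0209 and 16.6% kept neither. Of the members with neither end marked in DMSO, 0 had the mark at both in CPI-0209, against 0.0656% of all such genes. Of the 8 members with H3K27me3 anywhere over the record or the adjoining 2 kb in DMSO, 6 had none there in CPI-0209, against 29.8% of all such genes.

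**Figure D2:**
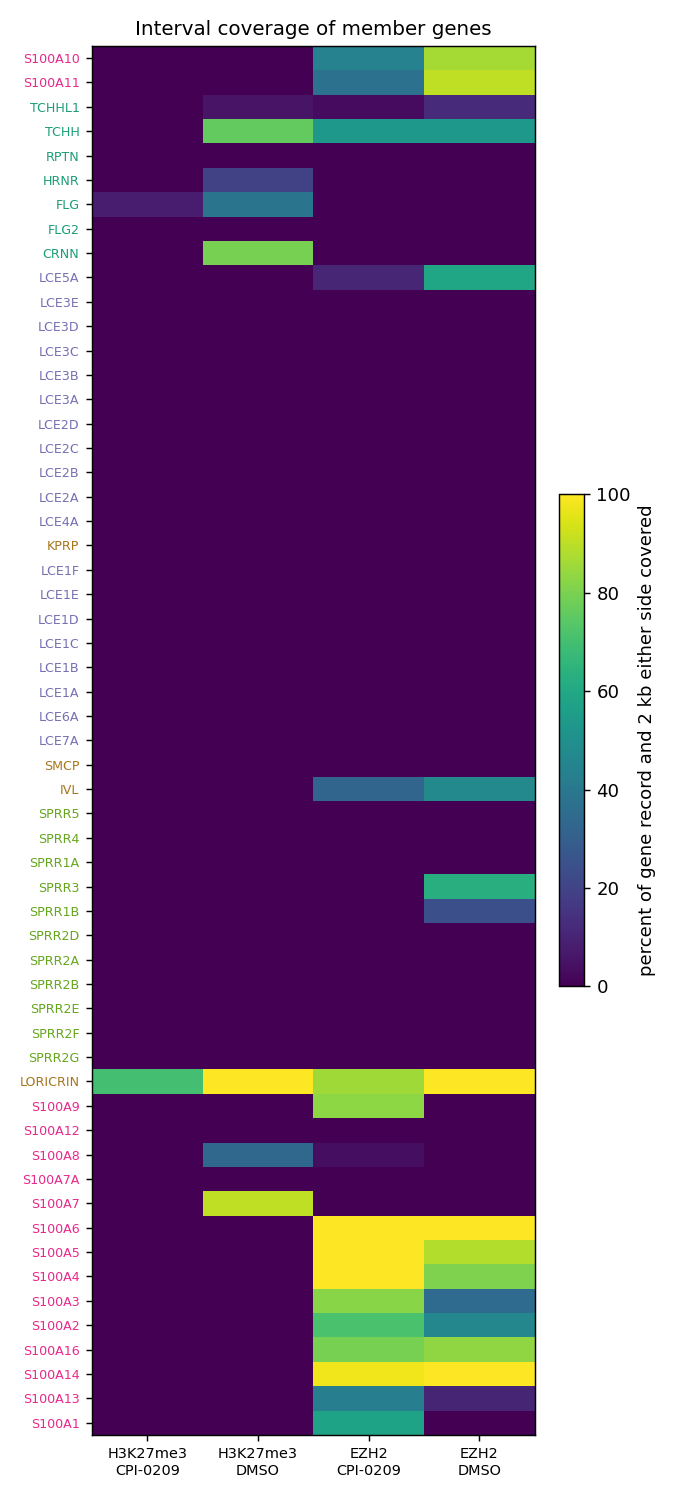
Percent of each member's record and 2 kb either side (colour) covered by the intervals of the 4 lists (columns), with members in order along chromosome 1. LORICRIN has H3K27me3 over 70.3% in CPI-0209 and FLG over 8.13%, the other members have none there, and 33 of the 57 members have no interval in any list.

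The 7 members of the centromeric flank are the fused-type S100 genes. H3K27me3 touched the record or the adjoining 2 kb of 1 of the 7 in CPI-0209 (FLG) and of 5 in DMSO (TCHHL1, TCHH, HRNR, FLG and CRNN), while RPTN and FLG2 had no interval in any of the 4 lists. Over all protein-coding genes 24.5% were touched in this way in CPI-0209 and 34.2% in DMSO. TCHH encodes trichohyalin, which hardens the inner root sheath of the hair follicle. Its record (152106317 to 152115444, minus strand) was covered by H3K27me3 over 0% in CPI-0209 and 88.1% in DMSO, by a 10.0 kb domain from 152107401 to 152117400 found in both DMSO blocks. EZH2 covered 76.7% of the TCHH record in CPI-0209 and 76.7% in DMSO, and both blocks of each EZH2 list held the call. At TCHH the enzyme was therefore called in both conditions and the mark in DMSO alone.

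CRNN encodes cornulin, a protein of squamous epithelium such as that of the oesophagus. H3K27me3 covered 0% of its record (152409243 to 152414263, minus strand) in CPI-0209 and 100% in DMSO, where the second block held 7.40 kb and the first 3.40 kb of the domain. EZH2 was called at CRNN in neither condition. FLG encodes profilaggrin, the precursor of the filaggrin that aggregates keratin filaments. H3K27me3 covered 9.53% of its record (152302165 to 152325239, minus strand) in CPI-0209, as 1 domain of 2.20 kb from 152307201 to 152309400, and 45.1% in DMSO, as domains of 2.80 and 7.60 kb. The CPI-0209 domain lay 15.8 kb downstream of the annotated start and the nearer DMSO domain 10.4 kb downstream, so no call reached the start of FLG. HRNR, which encodes hornerin, was covered over 0% in CPI-0209 and 26.4% in DMSO, by a 3.20 kb domain 2.59 kb downstream of its start. EZH2 was called at FLG and HRNR in neither condition.

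Several domains of this flank lay between genes. A domain downstream of TCHHL1, a gene related to trichohyalin, measured 4.80 kb in CPI-0209 (152076801 to 152081600) and 7.40 kb in DMSO (152075201 to 152082600). EZH2 covered 97.3% of that DMSO domain in CPI-0209 and 83.8% in DMSO. A domain 13.9 kb downstream of HRNR measured 2.40 kb in CPI-0209 and 2.40 kb in DMSO, at the same coordinates (152195801 to 152198200). It was the 1 domain of the locus called at full width in both conditions, and EZH2 covered 100% of it in CPI-0209 and 0% in DMSO. A domain between FLG2 and CRNN measured 3.20 kb in CPI-0209 and 9.40 kb in DMSO, with no EZH2 in either condition.

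**Figure D3:**
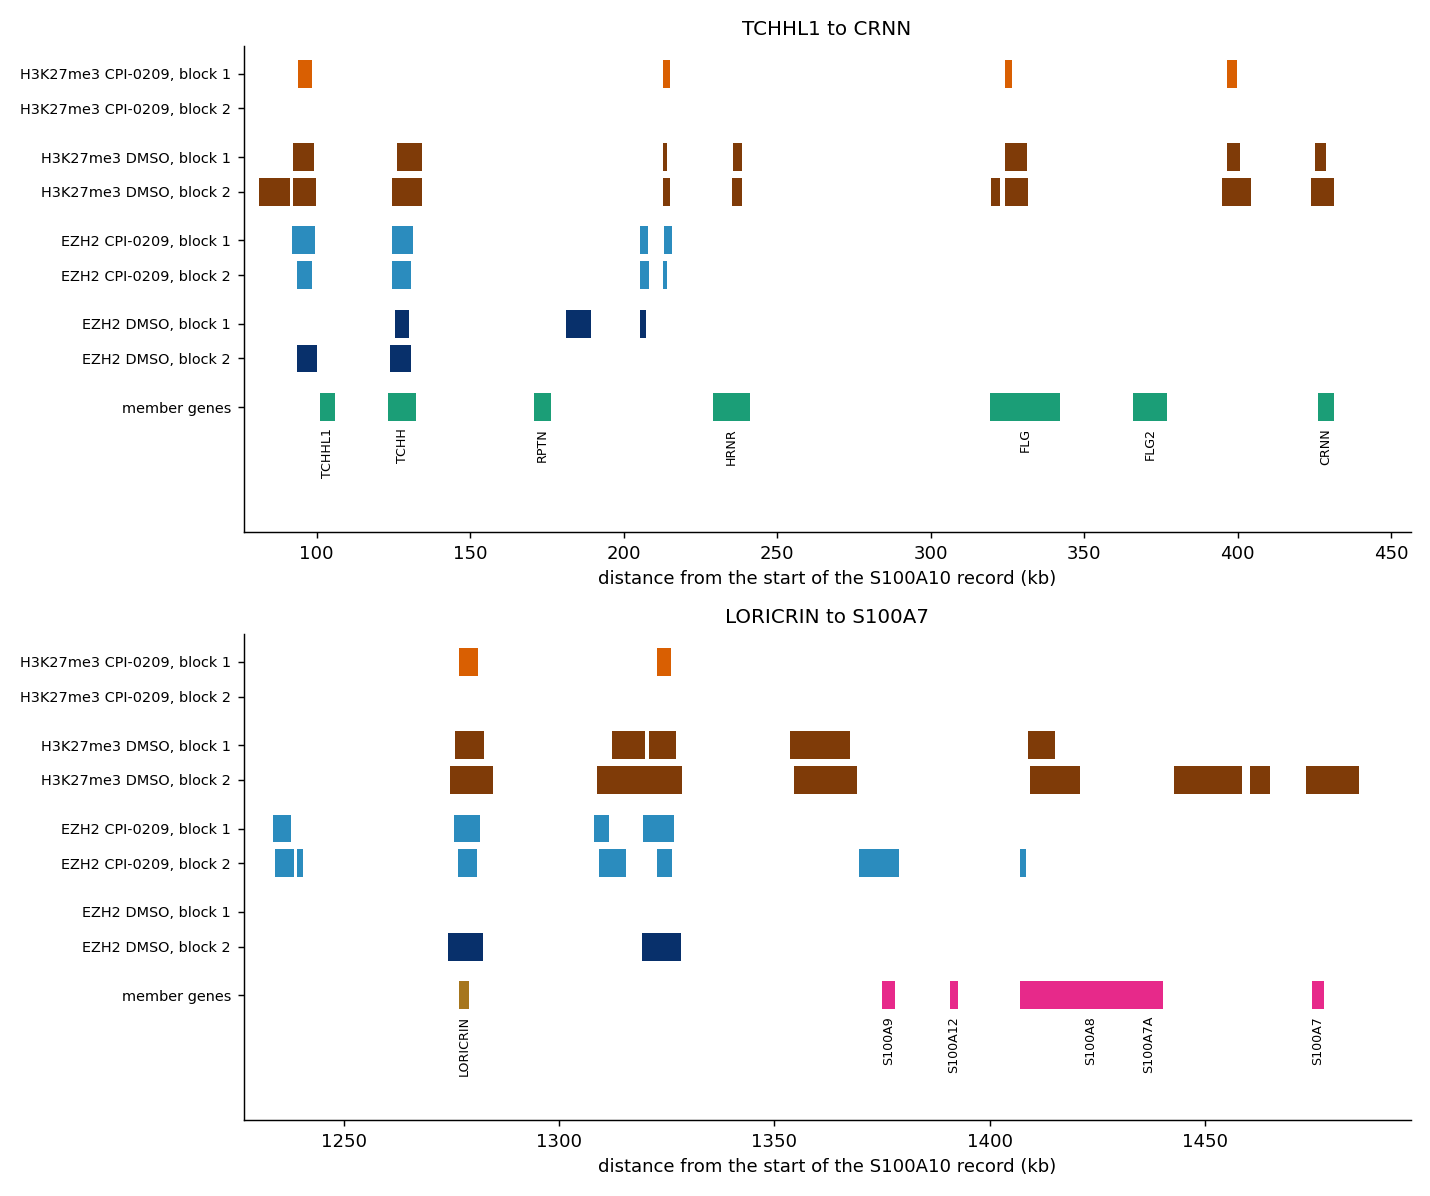
Intervals of both blocks of each list and the genes in the stretches from TCHHL1 to CRNN and from LORICRIN to S100A7, with distance along the locus in kb. H3K27me3 domains are narrower in CPI-0209 than in DMSO wherever both were called, except for the 2.40 kb domain downstream of HRNR, and none is seen in CPI-0209 at TCHH, HRNR, CRNN, S100A8 or S100A7.

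On the telomeric flank, LORICRIN, which encodes a main component of the cornified envelope, was the 1 member with a call of both antibodies in both conditions. H3K27me3 covered 100% of its record (153259687 to 153262124, plus strand) in CPI-0209 and 100% in DMSO. The domain measured 4.6 kb in CPI-0209, from 153259601 to 153264200, and 10.0 kb in DMSO, from 153257601 to 153267600. EZH2 also covered the record fully in both conditions, with domains of 6.0 kb in CPI-0209 and 8.00 kb in DMSO. In CPI-0209 the first block alone held H3K27me3 and both held EZH2, whereas in DMSO both blocks held H3K27me3 and the second alone held EZH2.

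S100A7, S100A8 and S100A9 encode psoriasin and both subunits of calprotectin, antimicrobial proteins of inflamed epithelium. S100A7 (153457744 to 153460651, minus strand) had no H3K27me3 in CPI-0209 and lay under a 12.2 kb domain in DMSO that the second block alone held. EZH2 was called at S100A7 in neither condition. For S100A8 the annotated start at 153391188 was used, since its RefSeq record runs far upstream to 153422583 and overlaps S100A7A. No H3K27me3 was called near that start in CPI-0209, and in DMSO a 12.2 kb domain, held by both blocks, began 0.613 kb upstream of it. EZH2 at the S100A8 start was called in CPI-0209, over 1.40 kb in the second block, and not in DMSO. S100A9 carried no H3K27me3 in either condition, and EZH2 covered 100% of its record (153357854 to 153361023, plus strand) in CPI-0209, from a 9.2 kb interval of the second block, and 0% in DMSO. S100A12, a related calcium-binding protein of granulocytes, and S100A7A had no interval in any list. No CPI-0209 H3K27me3 was called over a 15.6 kb DMSO domain at PGLYRP4, 5.65 kb from S100A9, nor over DMSO domains of 15.8 and 4.6 kb between S100A7A and S100A7.

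**Figure D4:**
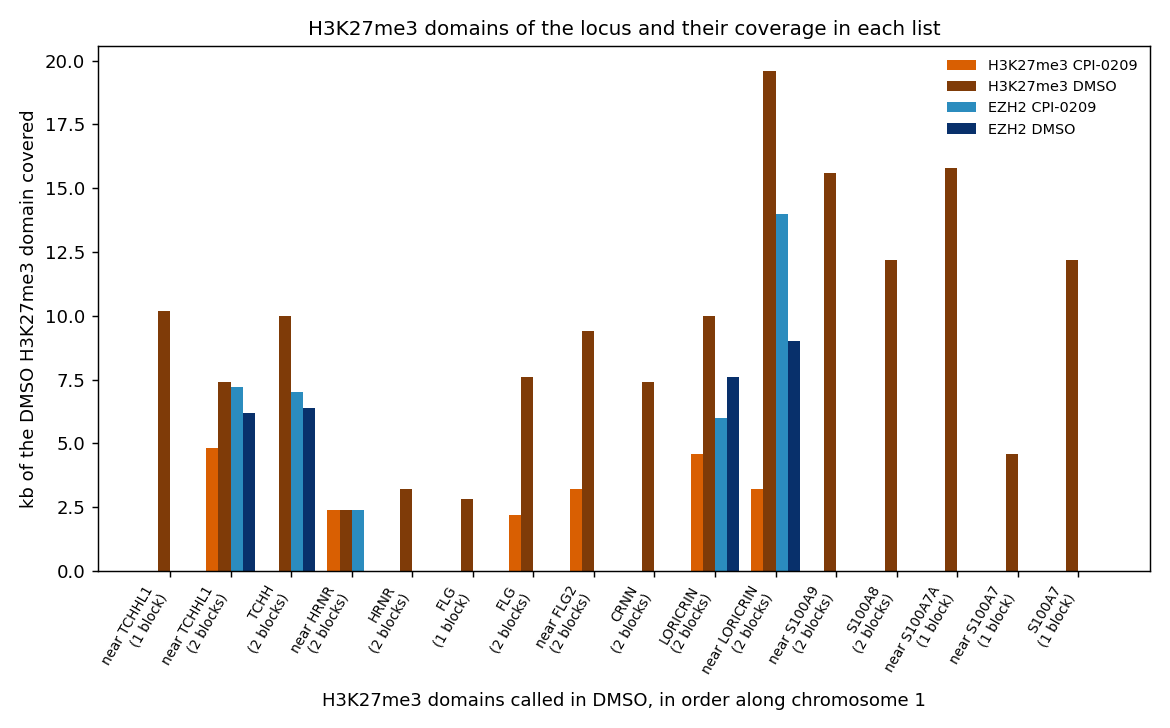
The 16 H3K27me3 domains called in DMSO, in order along chromosome 1, with the kb of each that the lists cover (the H3K27me3 DMSO value is the domain's own width). Of the 16, CPI-0209 H3K27me3 intervals meet 6, all of them among the 11 held by both DMSO blocks, and 0 of the 5 held by 1 block.

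The 16 DMSO domains of the locus were also compared by block and by EZH2. CPI-0209 intervals met 6 of the 11 domains held by both DMSO blocks, against 62.8% of such domains over the genome, and 0 of the 5 held by 1 block, against 5.19%. EZH2 in DMSO touched 4 of the 16, and 37.5% of H3K27me3 DMSO domains over the genome. CPI-0209 H3K27me3 met 3 of these 4, those near TCHHL1, LORICRIN and PGLYRP3, and not the domain at TCHH, and it met 3 of the 12 without EZH2. Over the genome 86.6% of domains with EZH2 and 13.75% of those without were met. By length, 43.2% of the DMSO H3K27me3 under EZH2 in the locus was called again in CPI-0209 (12.6 of 29.2 kb), and 6.44% of that outside EZH2 (7.80 of 121.2 kb). The genome-wide values were 68.6% under EZH2 and 9.71% outside it. The 6 DMSO domains met in CPI-0209 were 8.50 kb wide at the median, and the 10 not met were 10.1 kb.

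EZH2 was called mostly away from H3K27me3 in this locus. It covered 126.8 kb (7.68%) in CPI-0209 in 22 domains with a median width of 5.40 kb, and 152.8 kb (9.25%) in DMSO in 21 domains with a median of 7.20 kb. This order of the conditions turned with the block, the first giving 68.2 kb in CPI-0209 and 113.4 kb in DMSO and the second 101.0 kb in CPI-0209 and 62.0 kb in DMSO. The share of EZH2 length lying on H3K27me3 was 11.8% in CPI-0209, against 46.5% over the genome, and 19.1% in DMSO, against 72.2%. Of the H3K27me3 length of the locus, 73.5% lay under EZH2 in CPI-0209, against 92.5% over the genome, and 19.4% in DMSO, against 44.3%. Of the DMSO EZH2 length, 51.6% was called again in CPI-0209, against 78.2% over the genome, and 14 of the 21 DMSO domains met a CPI-0209 interval, against 87.5%. In CPI-0209 10 of the 22 EZH2 domains were held by 1 block, and in DMSO 17 of the 21. Over the genome 15143 of 27327 EZH2 domains were held by 1 block in CPI-0209 and 13731 of 18637 in DMSO.

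EZH2 marked both ends of 13 members in CPI-0209 (22.8%, exact 95% interval 12.7 to 35.8), against 25.9% of all protein-coding genes, and of 14 members in DMSO (24.6%, 14.1 to 37.8), against 17.5%. At least 1 end had EZH2 in 18 members in CPI-0209, against 71.5% of all genes, and in 17 in DMSO, against 54.6%. The record or its adjoining 2 kb was touched in the same numbers of members, 18 in CPI-0209, against 75.1% of all genes, and 17 in DMSO, against 58.8%. The first block alone gave both ends of 5 members in CPI-0209 and 9 in DMSO, and the second alone 10 in CPI-0209 and 6 in DMSO. At least 1 end was marked in 10 members in CPI-0209 and 12 in DMSO in the first block, and in 16 in CPI-0209 and 9 in DMSO in the second. Scored by the annotated start alone, the members were below both backgrounds, at 16 of 54 (29.6%) in CPI-0209 against 69.4% of all starts, and at 15 of 54 (27.8%) in DMSO against 50.5%. Of the 14 members with EZH2 at both ends in DMSO, 9 kept both in CPI-0209 and 2 kept neither, and over all such genes 87.9% kept both and 1.49% kept neither. Another 2 members, S100A9 and S100A1, gained both ends in CPI-0209 with neither marked in DMSO, as did 9.1% of all genes with neither end marked in DMSO. H3K27me3 was at neither end of 12 of the 13 members with both ends under EZH2 in CPI-0209, against 49.3% of all such genes, and of 12 of the 14 in DMSO, against 36.3%.

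The S100A genes, most of them at the outer edges of the locus, held the larger part of these calls. EZH2 was at both ends of 10 of the 16 S100A genes in CPI-0209 (62.5%, against 25.9% of all genes) and of 8 in DMSO (50%, against 17.5%). Their median record, 4.05 kb, is also short. By the start alone EZH2 was at 13 in CPI-0209 (81.25%, against 69.4% of all starts) and at 9 in DMSO (56.25%, against 50.5%), which are nearer to the shares over all genes. S100A6, S100A5, S100A4 and S100A3 lay under 1 EZH2 domain of 18.0 kb in CPI-0209 (153532201 to 153550200) and under domains of 9.6 and 5.0 kb in DMSO. S100A4 encodes a protein linked to cell motility, and its record was covered fully by EZH2 in both conditions, from the second block alone in each. S100A3, which encodes a hair cuticle protein, was covered over 100% in CPI-0209 and 3.73% in DMSO, also from the second block alone. S100A2, expressed in basal epithelial cells, was covered over 89.6% in CPI-0209 and 43.2% in DMSO, and both blocks of each list held the call. S100A16 and S100A14 shared 1 domain, of 11.2 kb in CPI-0209 and 12.2 kb in DMSO. The CPI-0209 domain was held by both blocks, though by the first alone at S100A14. The DMSO domain was held by the first alone. At the starts of S100A13 and S100A1 EZH2 was called in CPI-0209 alone, in domains of 3.6 and 4.20 kb from the second block. At the opposite edge lie S100A10 and S100A11, whose proteins bind annexins. EZH2 covered 49.9% of the S100A10 record in CPI-0209 and 93.7% in DMSO, with both blocks holding the call in each condition. It covered 31.2% of the S100A11 record in CPI-0209, from the second block, and 84.6% in DMSO, from the first.

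Among the 11 SPRR genes EZH2 marked both ends of 0 in CPI-0209, against 25.9% of all genes, and of 2 in DMSO, SPRR3 and SPRR1B (18.2%, against 17.5%). By the start alone it was at 0 of 9 SPRR starts in CPI-0209, against 69.4% of all starts, and at 2 in DMSO (22.2%, against 50.5%). SPRR3, abundant in oesophageal epithelium, was covered over 0% of its record in CPI-0209 and 87.9% in DMSO. SPRR1B, a squamous differentiation marker, was covered over 0% in CPI-0209 and 17.7% in DMSO. Among the 19 LCE genes, LCE5A alone had EZH2, at 1 end in CPI-0209 and at both in DMSO. With at least 1 end marked this is 5.26% of LCE genes in each condition, against 71.5% of all genes in CPI-0209 and 54.6% in DMSO. The domains lay beside LCE5A and covered 0% of its record in CPI-0209 and 12.9% in DMSO. IVL encodes involucrin, an early scaffold of the envelope. Its record (152908546 to 152911886, plus strand) was covered by EZH2 over 71.8% in CPI-0209 and 43.6% in DMSO, but the intervals differed in place. The 2.40 kb CPI-0209 interval began 0.855 kb downstream of the start, and the 6.20 kb DMSO interval spanned the start. The CPI-0209 calls at LCE5A and IVL came from the second block alone, and the DMSO calls at SPRR3, SPRR1B, LCE5A and IVL from the first block alone. In all, 33 of the 57 members (57.9%) had no interval of any list within 2 kb of their records, against 19.1% of all protein-coding genes. Shorter records offer less length to be touched, and the part of record length in this difference was not tested. The untouched members were the 18 LCE genes other than LCE5A, the 9 SPRR genes other than SPRR3 and SPRR1B (SPRR5 among them), RPTN, FLG2, KPRP, SMCP, S100A12 and S100A7A.

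The starts of 6 members show the sequence at these calls, chosen to give 1 or 2 examples of each of the patterns named next. They are H3K27me3 in both conditions (LORICRIN), H3K27me3 in DMSO alone with EZH2 within 2 kb in both (TCHH), H3K27me3 in DMSO alone without EZH2 (CRNN and S100A7), EZH2 without H3K27me3 within 2 kb in both (IVL), and EZH2 in CPI-0209 alone (S100A9). Other patterns, such as EZH2 in DMSO alone (SPRR3), and the most CG-rich starts are not among the 6. Each sequence runs 5′ to 3′ on the gene's own strand from 250 bases before to 50 after the annotated start, as given by RefSeq on GRCh38.p14. Capitals mark CG dinucleotides and the 7-letter motif TGANTCA, where N is any base. The motif takes in the AP-1 site TGAGTCA, present at LORICRIN and IVL. It also takes in TGAATCA, present at TCHH and CRNN, which is not the usual AP-1 site. TGANTCA reads the same on both strands and does not overlap a CG here. The windows are LORICRIN at chr1:153259437-153259736 on the plus strand, TCHH at chr1:152115395-152115694 on the minus strand, CRNN at chr1:152414214-152414513 on the minus strand, S100A7 at chr1:153460602-153460901 on the minus strand, IVL at chr1:152908296-152908595 on the plus strand and S100A9 at chr1:153357604-153357903 on the plus strand.
LORICRIN: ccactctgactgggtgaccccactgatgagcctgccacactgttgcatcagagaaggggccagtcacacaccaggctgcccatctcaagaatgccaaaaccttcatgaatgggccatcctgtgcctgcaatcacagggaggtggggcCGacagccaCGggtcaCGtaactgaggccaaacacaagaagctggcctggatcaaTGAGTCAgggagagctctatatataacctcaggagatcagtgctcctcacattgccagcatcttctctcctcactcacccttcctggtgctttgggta
TCHH: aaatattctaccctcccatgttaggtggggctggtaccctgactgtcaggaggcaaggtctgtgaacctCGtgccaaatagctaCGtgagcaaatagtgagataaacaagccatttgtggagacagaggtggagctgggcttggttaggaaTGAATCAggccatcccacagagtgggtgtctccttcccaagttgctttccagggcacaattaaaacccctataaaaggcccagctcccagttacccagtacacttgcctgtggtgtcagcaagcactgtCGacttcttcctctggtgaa
CRNN: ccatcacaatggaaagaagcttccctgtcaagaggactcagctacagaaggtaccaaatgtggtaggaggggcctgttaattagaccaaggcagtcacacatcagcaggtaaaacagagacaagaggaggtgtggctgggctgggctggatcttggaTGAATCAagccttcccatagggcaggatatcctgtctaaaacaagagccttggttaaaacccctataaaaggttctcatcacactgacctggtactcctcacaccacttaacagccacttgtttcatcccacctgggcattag
S100A7: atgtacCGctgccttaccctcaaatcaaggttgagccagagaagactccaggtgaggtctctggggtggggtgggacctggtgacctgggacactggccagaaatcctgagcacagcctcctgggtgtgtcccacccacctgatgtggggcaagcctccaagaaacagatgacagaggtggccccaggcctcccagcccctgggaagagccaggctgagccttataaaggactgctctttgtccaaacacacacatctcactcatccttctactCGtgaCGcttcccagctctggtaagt
IVL: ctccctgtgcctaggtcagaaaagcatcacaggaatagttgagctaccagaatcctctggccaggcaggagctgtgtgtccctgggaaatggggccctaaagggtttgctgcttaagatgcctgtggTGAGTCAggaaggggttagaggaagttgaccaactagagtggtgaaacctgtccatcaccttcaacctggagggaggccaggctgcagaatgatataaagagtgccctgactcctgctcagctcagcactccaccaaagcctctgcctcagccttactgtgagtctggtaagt
S100A9: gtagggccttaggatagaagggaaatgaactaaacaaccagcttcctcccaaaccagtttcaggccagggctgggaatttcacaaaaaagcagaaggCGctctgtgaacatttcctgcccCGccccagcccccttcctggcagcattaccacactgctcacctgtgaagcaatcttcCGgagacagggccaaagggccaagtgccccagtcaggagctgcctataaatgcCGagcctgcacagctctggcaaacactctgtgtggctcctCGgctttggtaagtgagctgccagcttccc

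The LORICRIN window was covered by H3K27me3 over 45.3% in CPI-0209 and 100% in DMSO, and by EZH2 over 100% in both. The TCHH window was covered by H3K27me3 over 0% in CPI-0209 and 100% in DMSO, and EZH2 covered 0% of it in both conditions, its domains ending 1.04 kb downstream of the start in CPI-0209 and 1.64 kb downstream in DMSO. At CRNN H3K27me3 covered 0% of the window in CPI-0209 and 62.3% in DMSO, and at S100A7 0% in CPI-0209 and 100% in DMSO. EZH2 covered 0% of the IVL window in CPI-0209 and 100% in DMSO, and 100% of the S100A9 window in CPI-0209 and 0% in DMSO. The windows hold few CG dinucleotides, with 3 each at LORICRIN, TCHH and S100A7, 5 at S100A9 and 0 at CRNN and IVL. LORICRIN, TCHH, CRNN and IVL each hold 1 TGANTCA, and S100A7 and S100A9 hold 0.

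Few CG dinucleotides at the start were common to nearly all members. The 54 members with an annotated start had a median of 3 CG dinucleotides in the 300 bases, against 22 over 15812 protein-coding genes, and a median GC content of 53.2% against 62.7%. The most CG-rich starts were S100A genes, namely S100A10 with 32, S100A6 with 31, S100A11 with 22 and S100A13 with 19. EZH2 without H3K27me3 was called at these 4 starts, in CPI-0209 alone at S100A13. The 5 members with H3K27me3 at the start in DMSO had between 0 and 3, the 16 with EZH2 and no H3K27me3 between 0 and 32, and the 33 with no interval at the start between 1 and 6. TGANTCA occurred in 17 of the 54 windows (31.5%), against 5.755% of all protein-coding starts. It was found at 6 of 7 fused-type S100 starts, 6 of 9 SPRR starts, 3 of 16 S100A starts and 0 of 18 LCE starts. TATAAA on either strand occurred in 29 of the 54 (53.7%), against 9.64% of all starts. The forms of TGANTCA were not counted apart. These matches describe letters in the windows and are not binding sites.

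**Figure D5:**
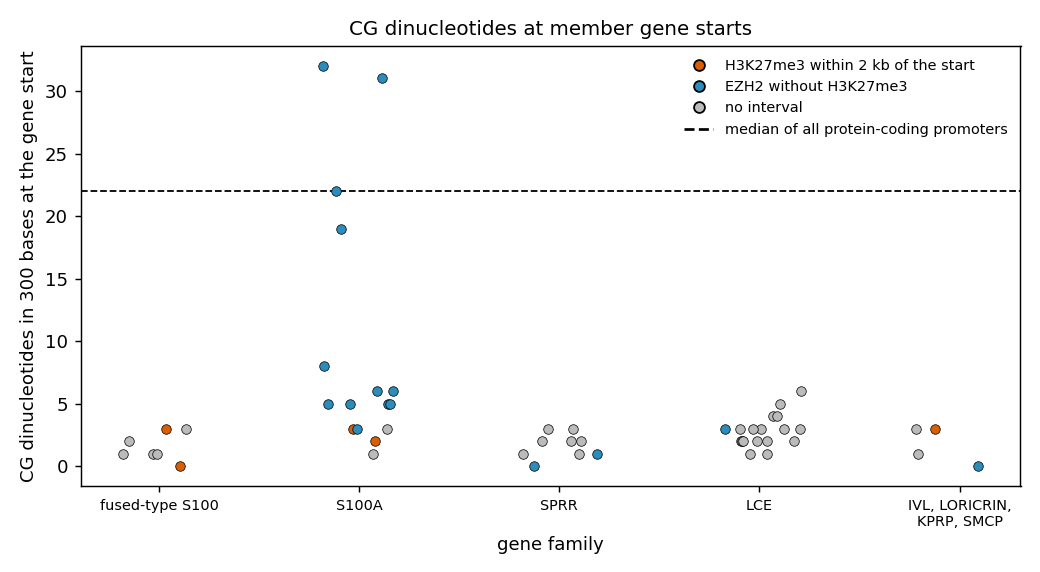
CG dinucleotides in the 300 bases around the annotated start of the 54 members (points) by family, coloured by the intervals of either condition within 2 kb of the start; the dashed line is the median of 22 over all protein-coding genes. The highest 4 points are S100A10, S100A6, S100A11 and S100A13, with EZH2 and no H3K27me3, and the H3K27me3 points lie between 0 and 3.

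Genes that work with the complex but lie elsewhere were scored in the same way. Of 28 cornified envelope partners and barrier genes, 5 carried H3K27me3 at both ends in CPI-0209 (17.9%, against 8.68% of all protein-coding genes) and 8 in DMSO (28.6%, against 15.2%). SBSN, DMKN and KRTDAP, which encode secreted keratinocyte proteins and lie close together on chromosome 19, carried the mark at both ends in either condition, as did TGM3, an epidermal transglutaminase, and ALOX12B, a barrier lipoxygenase. TGM5, another transglutaminase, and KLK13, a kallikrein protease, were marked at 1 end in CPI-0209 and at both in DMSO. PI3, which encodes the protease inhibitor elafin, was marked at neither end in CPI-0209 and at both in DMSO. EZH2 was at both ends of 9 barrier genes in CPI-0209 (32.1%, against 25.9% of all genes) and of 4 in DMSO (14.3%, against 17.5%). Their median record was 12.5 kb, against 24.2 kb over all genes. At annotated barrier gene starts EZH2 was below both backgrounds, at 13 of 21 (61.9%) in CPI-0209 against 69.4% of all starts. In DMSO it was at 8 of these starts (38.1%) against 50.5%. Of 20 regulators of epidermal differentiation, EZH2 was at both ends of 10 in CPI-0209 (50%, against 25.9%) and of 9 in DMSO (45%, against 17.5%). By the start alone it was at 11 of 14 in CPI-0209 (78.6%, against 69.4%) and at 10 in DMSO (71.4%, against 50.5%). H3K27me3 was at both ends of 1 regulator in each condition (5%), against 8.68% of all genes in CPI-0209 and 15.2% in DMSO. Among the 4 S100 genes of other chromosomes, S100B was marked by H3K27me3 at 1 end in CPI-0209 and at both in DMSO.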

How the data were processed

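The deposited files hold 3 columns per the file headers, namely chromosome, start and end, with no score. The submitters' processing notes name BWA, SICER and the hg38 build, with no version, setting or order, and whether the input served as control is not stated in the labels. Starts in the lists count from 0 on a 200-bp grid and are printed counting from 1. The members, gene lists and tests were chosen with earlier results of these data known, and the 5 stretches, the blocks and the 6 printed starts after the intervals had been seen. Gene records and 300-base start sequences came from RefSeq tables of GRCh38.p14, which is hg38; 15812 of 19974 protein-coding records and 54 of 57 members had an annotated start, which lies inside the record for 6 members. Intervals of both blocks were pooled, and overlapping or touching ones merged, with Python 3.11.15. A gene end or start was marked by 1 bp or more within 2 kb. Exact (Clopper-Pearson) 95% intervals came from SciPy 1.17.1. The interval arithmetic was tested on simulated lists. Any member could be named; genes outside the complex were named if H3K27me3 was at both ends in either condition, at most 8 per list. Other neighbours in the locus were named after their values were seen.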

Additional observations from a re-analysis of the deposited data

How the results depend on the processing

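No paired analysis was possible because each group is 1 library and no test was run. The counts of members with H3K27me3 at both ends (1 in CPI-0209, 4 in DMSO) stayed at 1 in CPI-0209 and between 3 and 5 in DMSO with windows of 5 or 1 kb, with at least 50% of each window covered and with annotated starts alone. Splitting the blocks, an alternative chosen after seeing the data, moved more. With the first block alone the H3K27me3 counts were 1 in CPI-0209 and 1 in DMSO, and with the second alone 0 in CPI-0209 and 4 in DMSO. H3K27me3 length was 1.24% of the locus in CPI-0209 and 4.52% in DMSO with the first block, and 0% in CPI-0209 and 9.02% in DMSO with the second; 25.7% of the DMSO length was called again with the first block and 0% with the second. With the first block 5.09% of the DMSO length lay under EZH2. EZH2 at both ends gave 5 members in CPI-0209 and 9 in DMSO with the first block, and 10 in CPI-0209 and 6 in DMSO with the second. EZH2 length was 4.13% in CPI-0209 and 6.87% in DMSO with the first block and 6.11% in CPI-0209 and 3.75% in DMSO with the second.

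Over stretches under 2 intervals, that is called in both blocks, H3K27me3 was at both ends of 0 members in CPI-0209 and 1 in DMSO, and covered 0% of the locus in CPI-0209 and 4.43% in DMSO, with 0% of that DMSO length called again and 5.19% of it under EZH2. EZH2 was then at both ends of 3 members in CPI-0209 and 1 in DMSO, and covered 2.57% in CPI-0209 and 1.37% in DMSO, the opposite order to the pooled lists. Shortening the longer list to its widest intervals is a cut by width. For H3K27me3 it gave 1 member and 1.24% of the locus in CPI-0209 and 0 members and 0% in DMSO. No DMSO H3K27me3 interval of the locus was among those kept, so this cut cannot order the conditions. For EZH2 in CPI-0209 it gave 6.42% of the locus and 61.8% of its H3K27me3. EZH2 at both ends gave 9 members in DMSO with windows of 1 kb, and 7 in CPI-0209 and 8 in DMSO with at least 50% of each window covered. Joining gaps under 5 kb gave EZH2 8.43% in CPI-0209 and 9.97% in DMSO. With 100 kb added on each side, H3K27me3 covered 1.32% in CPI-0209 and 8.60% in DMSO. Shares of a length that became 0 could not be computed. Depth is unknown, and the cause of the differences between blocks was not tested.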

Other observations

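The locus holds 7 other protein-coding records. PGLYRP3 and PGLYRP4 encode peptidoglycan recognition proteins with antibacterial activity and lie between LORICRIN and S100A9. H3K27me3 covered 20.2% of the PGLYRP3 record in CPI-0209 and 90.2% in DMSO, and EZH2 covered 54.8% in CPI-0209 and 56.8% in DMSO. H3K27me3 covered 0% of the PGLYRP4 record in CPI-0209 and 65.4% in DMSO, with no EZH2 in either condition. PRR9, between SPRR2G and LORICRIN, had EZH2 over 100% of its record in CPI-0209, where both blocks held the call, and 0% in DMSO, with no H3K27me3 in either. CRCT1, beside LCE5A, had EZH2 over 100% of its record in both conditions and no H3K27me3. The second block alone held its CPI-0209 call and the first alone its DMSO call. KPLCE and LELP1 had no interval over their records or near their ends in any list. CHTOP, which reaches past the telomeric edge, had EZH2 over 25.6% of its record in CPI-0209 and 0% in DMSO.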
